A study of Mus musculus with 6 samples.

Results

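The core spliceosome was followed here through 35 genes: the branch site and U2AF factors, the SF3A and SF3B subunits of the U2 snRNP, proteins of the U4/U6.U5 tri-snRNP and the PRP19 complex, spliceosomal helicases, and the accessory proteins Smndc1 and Zranb2. They were picked by gene symbol out of 24110 genes in the table, all 35 were found, and all 35 passed the filter on low values that left 14113 genes to test. RNA came from sorted mouse hematopoietic stem cells (HSCs), which renew the blood, gated in C57BL/6 marrow as Lineage- Sca-1+ cells that lacked CD48 and carried CD150. The control group, Prmt5 fl/fl, carried an intact floxed Prmt5 gene, and the other group, Prmt5 KO, carried the deleted form (Prmt5Δ/Δ), with cells taken 7 days after induction. Each group held 3 libraries, each from the pooled marrow of 2 mice, with litter and sex matched between genotypes. Neither the driver of the deletion, nor its inducer, nor whether fl/fl mice received it is given in the sources used here.

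Splicing removes introns in steps. SF1 and U2AF first mark the end of an intron, the U2 snRNP with SF3A and SF3B then settles on the branch site, the tri-snRNP joins, and helicases and the PRP19 complex reshape the assembly into its active form. PRMT5 adds symmetric methyl groups to arginines of Sm proteins, the ring proteins of the spliceosomal snRNPs, and SMNDC1 carries a Tudor domain, a fold that binds such methylated arginines. In human blood, SF3B1, U2AF1 and ZRSR2 are recurrent sites of mutation in myelodysplastic syndromes. The values below are totals per gene and do not show which exons were used.

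The genes whose difference between genotypes passed the test were Prpf3, Smndc1 and Zranb2, and the bases just upstream of their starts are shown to place them in the genome (RefSeq, GRCm38.p6, read 5′ to 3′ on the strand of the gene, 150 bases ending 1 base before the start farthest upstream). Capitals mark the only motif found in these stretches, GGGCGG on either strand, the binding sequence of the SP and KLF families.
Prpf3, minus strand, chr3:95855886-95856035: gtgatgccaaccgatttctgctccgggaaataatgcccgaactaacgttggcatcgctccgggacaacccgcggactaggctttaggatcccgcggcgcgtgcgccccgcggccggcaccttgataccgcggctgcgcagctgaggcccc
Smndc1, minus strand, chr19:53390635-53390784: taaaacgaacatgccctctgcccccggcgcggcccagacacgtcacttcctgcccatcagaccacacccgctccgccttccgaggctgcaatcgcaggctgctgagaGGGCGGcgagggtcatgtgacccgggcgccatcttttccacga
Zranb2, plus strand, chr3:157534015-157534164: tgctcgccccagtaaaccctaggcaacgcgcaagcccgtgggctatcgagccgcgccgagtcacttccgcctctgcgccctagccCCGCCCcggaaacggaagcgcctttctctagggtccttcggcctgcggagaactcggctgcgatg
On both strands, 7 motifs were searched: the palindromic NRF1 motif and those spelled out here, none of which lies within another. Windows of 300 bases were held for 29 of the 35 genes (34 windows), and U2af2, Sf3b4, Eftud2, Usp39, Ddx23 and Prpf18 had none. The ETS family motif CCGGAAG was in 41.2% of these windows, against 16.3% of the windows of all genes tested and 8.86% of all windows held. The motif GGGCGG was in 61.8%, against 60.2% of the windows of tested genes and 35.7% of all windows. The TATA box TATAAA was in 2.94%, against 7.37% and 13.6%. CCAAT was in 44.1% of the windows of the 35 genes and in 37.4% of each other set. The E-box CACGTG was in 8.82% (9.77% and 7.15%), the CRE motif TGACGTCA in 2.94% (2.92% and 1.79%) and the NRF1 motif in 0% (1.94% and 0.971%). A match is a description of the letters and not a site of binding.

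The libraries held 37834096 to 44704636 reads in genes, and all values are scaled counts, that is, reads scaled by the authors to a common total of 44704636. Prmt5 itself had means of 6037 ± 34.9 and 1001 ± 90.2 scaled counts in fl/fl and KO (SD, n = 3 each), and each library matched its label. Among the 14113 genes, limma called 39 higher and 64 lower in KO (adjusted p below 0.05), against 35 higher and 22 lower with median-of-ratios size factors. The sorting gate and stem cell genes summed to 86831 to 131239 scaled counts in fl/fl and 92493 to 107540.1 in KO, and 0 of 11 passed the test. The CD48 gene and Flt3, which mark cells outside the gate, summed to 1634 to 2549 and 964 to 1555. Markers of megakaryocytes and platelets summed to 72597 to 88979 in fl/fl and 32138 to 60508 in KO, with 2 of 11 lower, and erythroid markers to 11604 to 21469 and 7369 to 8698, with 2 of 9 lower. Granulocyte and monocyte markers were 248199, 93815 and 57689 in fl/fl replicates 1 to 3 and 110811, 81528 and 860979.8 in KO replicates 1 to 3. Of the fl/fl libraries, replicate 1 also held the highest erythroid sum and the highest mast cell and basophil sum. The ranges in fl/fl and KO were, for B cell markers 1858 to 2956 and 1617 to 1870.5, for T and NK cell markers 241 to 335 and 179 to 823 (the highest again KO replicate 3), for mast cell and basophil markers 341 to 3535 and 198 to 1319.8, and for endothelial and stromal markers 2915 to 3575 and 2777 to 3756, with 0 genes past the test in these lists. The globin genes Hba-a1 and Hbb-bs and the mast cell tryptase Tpsb2 had 0 reads in every library. The part of these marker shifts in the results below was not tested. In such bulk samples fewer cells of a type and less RNA per cell cannot be told apart.

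In each group 1 library stood apart from the other pair. Chi-square over its degrees of freedom was 217 and 214 between fl/fl replicate 3 and the other fl/fl libraries, which gave 30.8 between themselves, and 119 and 137 between KO replicate 3 and the other KO libraries, which gave 26.2. KO replicate 3 was the one with the highest granulocyte and monocyte markers, and fl/fl replicate 1 had the highest of the fl/fl libraries. Prmt5 fl/fl replicate 3 had lower values than the other fl/fl libraries for long genes and higher values for short ones. Over all genes tested, its median log2 difference from the mean of fl/fl replicates 1 and 2 was 0.41 for genes under 2 kb, -0.0058 for 2 to 4 kb, -0.55 for 4 to 6 kb and -0.75 over 6 kb. For the core spliceosome genes these medians were 0.26 (6 genes), -0.11 (15 genes), -0.38 (10 genes) and -1.22 (4 genes). Across the 35 genes the Spearman rho between gene length and that difference was -0.49, and across all 14113 genes it was -0.57, both given as descriptions. For KO replicates 1 to 3, each against the other KO libraries, the rho was -0.54, 0.084 and 0.29 over the 35 genes. Over all genes it was -0.26, 0.049 and 0.19. Prmt5 fl/fl replicate 3 held the lowest of the 6 values for 20 of the 35 genes. Results for the 35 genes as a set are therefore given with and without each of these libraries. Folds of single genes are given mainly with and without fl/fl replicate 3. The part of either library in any one difference was not tested beyond that.

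**Figure D1:**
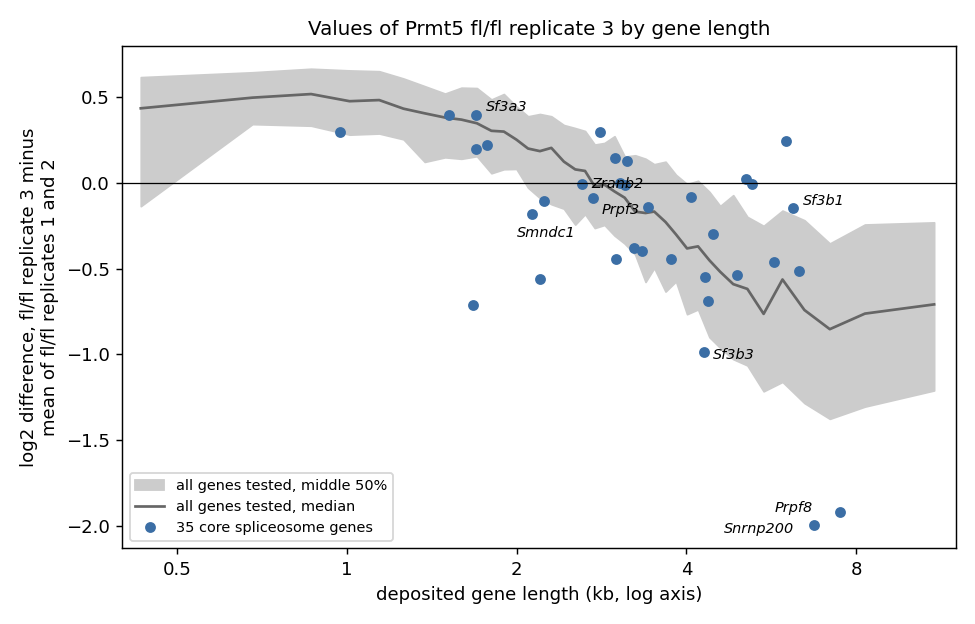
Log2 difference between Prmt5 fl/fl replicate 3 and the mean of fl/fl replicates 1 and 2 (vertical axis) against deposited gene length in kb (horizontal, log axis), with points for the 35 core spliceosome genes and a line and band for the median and middle 50% of all genes tested. Prpf8 and Snrnp200 lie near -2, below the band, while Zranb2 and Prpf3 lie near 0.

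In Prmt5 KO stem cells 2 of the 35 core spliceosome genes rose, Prpf3 and Smndc1, and 1 fell, Zranb2 (limma, adjusted p below 0.05). Over all genes tested the same threshold was passed by 0.730%, with 0.276% higher and 0.453% lower. Each such share of all genes is the background for the count beside it. The 35 genes were chosen with earlier results of these data known, so these contrasts describe the list and do not test it. The other 32 genes did not pass the threshold. Their folds leaned to one side: 30 of the 35 log2 fold changes were above 0, against 44.8% of all genes tested, and the median was 0.28 against -0.048 over all genes. The KO values lay wholly above the fl/fl values for 19 of the 35 genes, against 8.30% of all genes tested, and wholly below them for 2 genes, Zranb2 and Prpf6, against 19.9% (28.2% in either direction). At an unadjusted p below 0.05, 13 of the 35 were higher and 1 was lower, against 4.58% and 13.6% of all genes (18.2% in either direction). Counting reads over the whole set, the 35 genes took 0.629%, 0.624% and 0.499% of the reads in fl/fl replicates 1 to 3 and 0.747%, 0.752% and 0.728% in KO replicates 1 to 3.

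Without fl/fl replicate 3 the median of the 35 log2 fold changes was 0.21 against -0.075 over all genes. With that library left out, 4 of the 35 were higher and 1 lower by limma, with 2.67% of all genes past the threshold (0.851% higher and 1.82% lower). The added genes were Snrnp200 and Prpf39. The KO values then lay wholly above the fl/fl values for 23 of the 35 and wholly below for 3, against 14.8% and 29.5% of all genes (44.3% in either direction). Without KO replicate 3 the median of the 35 was 0.30, against -0.042 over all genes. The KO values then lay wholly above the fl/fl values for 24 of the 35 and wholly below for 2. The shares of all genes were 11.9% and 23.5% (35.4% in either direction). Limma then called 0 of the 35. The share of all genes that limma called at that setting is not given here, so this count describes only the 35. When the trend of each library with gene length was removed, a step chosen after seeing the data, 4 were higher and 1 lower as well (3.33% of all genes, 1.64% higher and 1.69% lower), with U2af1 and Prpf38b in place of the former pair. DESeq2 on the recovered reads called 7 higher and 1 lower (6.94% of all genes, 2.57% higher and 4.37% lower). edgeR called Prpf3, Smndc1 and Zranb2 (0.427% of all genes, 0.242% higher and 0.185% lower). The medians of the 35 differences within libraries of the same replicate number were 0.20, 0.22 and 0.23 for numbers 1 to 3. Over all genes tested these medians were -0.095, -0.055 and -0.10.

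**Figure D2:**
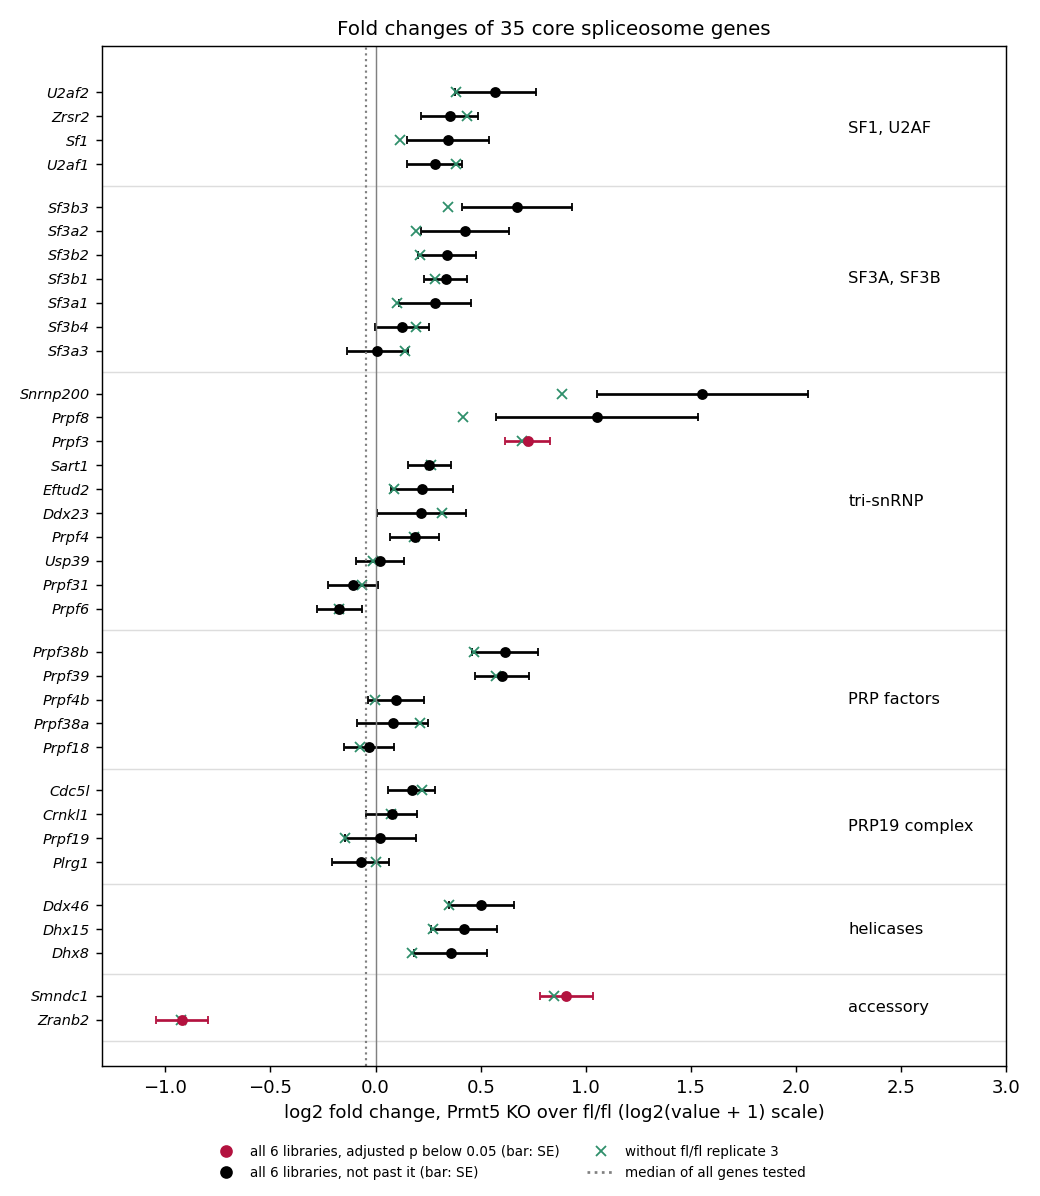
Log2 fold change of each of the 35 genes, Prmt5 KO over fl/fl, by role (circles with standard errors, n = 3 each; red circles passed the limma threshold), with the value without fl/fl replicate 3 as crosses and the median of all genes tested (-0.048) as a dotted line. Snrnp200 and Prpf8 have the widest bars and move most when that library is left out, while Prpf3, Smndc1 and Zranb2 hardly move.

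Smndc1 encodes a Tudor-domain protein associated with the U2 snRNP that is needed for the tri-snRNP to join. It had 2014, 2162 and 1842 scaled counts in fl/fl replicates 1 to 3 and 3962, 3670.5 and 3641 in KO replicates 1 to 3. All KO values were above all fl/fl values, and neither group held a library far from the rest. Means of 2006 ± 160.3 and 3758 ± 177 (SD over 3 libraries each) made a 1.87-fold rise, with a log2 fold change of 0.91 and a standard error of 0.13 (adjusted p = 0.0428 in limma). The adjusted p was 0.0375 by edgeR and 6.84e-09 by DESeq2. The gene lies on chromosome 19 (53379390 to 53390578, minus strand, GRCm38/mm10 with GENCODE M21), in 9 merged exons that share no base with another gene.

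Zranb2 encodes a zinc finger protein with an arginine and serine-rich tail that binds RNA resembling the start of an intron and affects alternative splicing. Its values were 6262, 5988 and 6090.4 scaled counts in fl/fl and 3207, 3562 and 2943 in KO. The highest KO library was well below the lowest fl/fl library. The means went from 6114 ± 139 to 3237 ± 311, so the KO level was 0.530 of the fl/fl level, with a log2 fold change of -0.92 and a standard error of 0.12 (adjusted p = 0.0371 in limma; edgeR 0.0426; DESeq2 4.57e-07). Zranb2 lies on chromosome 3 (157534160 to 157548410, plus strand) in 9 merged exons. It was the only one of the 35 genes to fall past the threshold.

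Prpf3 encodes a protein of the U4/U6 part of the tri-snRNP, and its human form is mutated in a dominant retinal degeneration. It stood at 4864, 4673 and 4490.2 scaled counts in fl/fl and rose to 7855, 7411 and 7886 in KO, again with no overlap. The means were 4676 ± 187 and 7718 ± 266, a 1.65-fold rise with a log2 fold change of 0.72 and a standard error of 0.11 (adjusted p = 0.0431 in limma; edgeR 0.0457; DESeq2 2.84e-07). Prpf3 lies on chromosome 3 (95830124 to 95855885, minus strand) in 16 merged exons.

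In fl/fl replicate 3 these 3 genes differed from the other fl/fl libraries by log2 values of -0.18 (Smndc1), -0.0079 (Zranb2) and -0.086 (Prpf3), and without it their folds were 0.85, -0.92 and 0.69 (adjusted p = 0.0186, 0.0186 and 0.0204 in limma). None of them shares exon bases with another gene or has a near-identical transcript of another gene in the annotation (at least 95% identity over 200 bases). The calls were nonetheless near the threshold. Leaving out fl/fl replicate 1, fl/fl replicate 2 or any KO replicate, each in turn, ended all 3 calls, with adjusted p from 0.0920 to 0.234 and folds of 0.87 to 0.96 for Smndc1, -0.99 to -0.85 for Zranb2 and 0.71 to 0.75 for Prpf3. Limma without its mean-variance trend also ended them (adjusted p = 0.0579, 0.0579 and 0.0708). The shares of all genes called at these settings are not given here, so the lost calls describe only these 3 genes. Limma with the replicate number as a block ended the calls too (adjusted p = 0.197 for each, 2 residual degrees of freedom). Libraries of the same number share a title prefix in the labels. With that block Prmt5, the deleted gene, did not pass either (adjusted p = 0.0618 in limma).

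**Figure D3:**
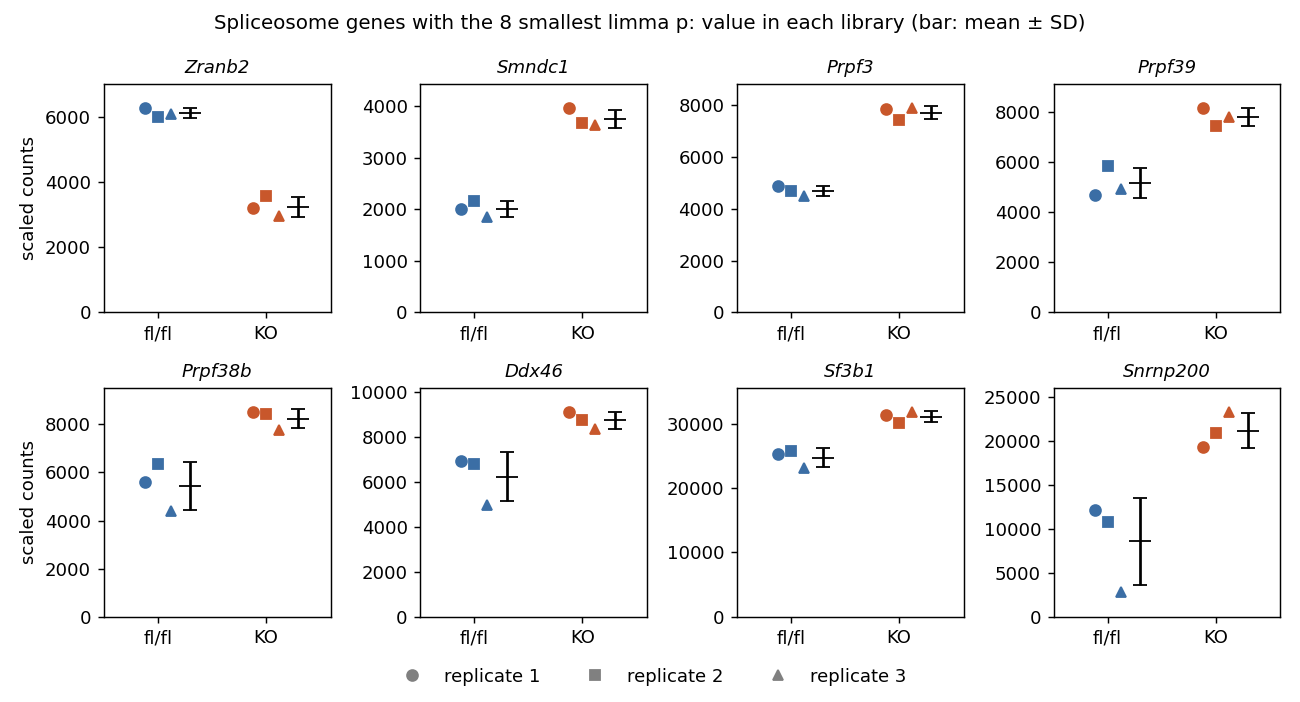
Scaled counts in each library (points, marker shape by replicate number) with mean and SD (bars) for the 8 core spliceosome genes with the smallest limma p; every vertical axis starts at 0. The groups do not overlap in any of the 8 panels, and fl/fl replicate 3 is the lowest fl/fl point in each panel but those of Zranb2 and Prpf39.

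Among the factors that mark the end of the intron, 0 of 4 passed the test, with log2 fold changes from 0.28 to 0.57 and a median of 0.35. U2af2, the subunit that binds the pyrimidine tract, was at 3959.7, 3528 and 2529.99 scaled counts in fl/fl and 4230.1, 5072 and 5389 in KO, with a log2 fold change of 0.57 (adjusted p = 0.189 in limma). Its groups did not overlap, although each was spread widely. Zrsr2, the X-linked relative of U2af1 that serves minor introns, was at 1696, 1762 and 2046 against 2441, 2214 and 2357, a log2 fold change of 0.35 (adjusted p = 0.233 in limma). U2af1, which reads the last bases of the intron, was at 7629.9, 7402 and 9234 against 10418, 9929 and 9063, a log2 fold change of 0.28 (adjusted p = 0.310 in limma). Here fl/fl replicate 3 was the high library and the groups overlapped, and without it the log2 fold change was 0.38 (adjusted p = 0.0677 in limma). Once the length trend was removed it was 0.47 (adjusted p = 0.0403 in limma). Sf1, the branch site protein that U2 displaces, had a log2 fold change of 0.34, which was 0.11 without fl/fl replicate 3. Transcripts of U2af1 and U2af2 have near-identical annotated copies, so their reads could be split.

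Of the SF3A and SF3B subunits of the U2 snRNP 0 of 7 passed the test. Their log2 fold changes ran from 0.0089 to 0.67 with a median of 0.33, and the KO values lay wholly above the fl/fl values for 4 of them (8.30% of all genes). Sf3b1, which clamps the branch site helix, was at 25299.6, 25869 and 23088 scaled counts in fl/fl and 31480.1, 30137 and 31821 in KO. Every KO library was above every fl/fl library and the spread in each group was narrow, with a log2 fold change of 0.33 (adjusted p = 0.157 in limma; DESeq2 0.0287). It was 0.28 without fl/fl replicate 3 (adjusted p = 0.0929 in limma). Sf3b2, which binds upstream of the branch site, was at 20904, 21435 and 16245 against 23192, 24505 and 25945, a log2 fold change of 0.34 (adjusted p = 0.253 in limma). Sf3b3, the propeller-shaped scaffold of the complex, was at 29490.1, 29625 and 14915 against 37647, 39390.3 and 35542, a log2 fold change of 0.67 (adjusted p = 0.234 in limma). Replicate 3 of fl/fl was far below the rest, and without it the Sf3b3 fold was 0.34 (adjusted p = 0.0739 in limma). Sf3a3, a subunit of SF3A, was at 9842, 9587 and 12811 against 11316, 11005 and 9887, so the groups overlapped on both sides. Sf3a2, another SF3A subunit, was at 2927, 2972 and 1802 against 3519, 3403 and 3186, a log2 fold change of 0.43 that was 0.19 without fl/fl replicate 3. Of Sf3a2 exon bases, 16.1% are shared with Plekhj1 on the other strand, and the reads carry no strand information.

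In the tri-snRNP 1 of 10 genes rose, Prpf3, and the others spread from -0.17 to 1.55 on the log2 scale. Snrnp200, the helicase that unwinds U4 from U6, had the largest fold of the 35 and one of the widest spreads. It was at 12088, 10741 and 2849.8 scaled counts in fl/fl and 19332, 20875 and 23244 in KO, so that all KO libraries were above all fl/fl libraries and fl/fl replicate 3 was far below the rest. The log2 fold change was 1.55 with a standard error of 0.50 (adjusted p = 0.172 in limma; edgeR 0.210; DESeq2 0.0212). Without fl/fl replicate 3 it was 0.89 and past the limma threshold (adjusted p = 0.0225). Prpf8, the scaffold around the catalytic RNA and the binding partner of Snrnp200, was at 11584, 11385 and 3029 against 14127, 15469.8 and 16389. Its log2 fold change of 1.05 (adjusted p = 0.303 in limma) was 0.41 without fl/fl replicate 3 (adjusted p = 0.0595 in limma). Both genes are long, 6740 bases for Snrnp200 and 7481 for Prpf8, and in fl/fl replicate 3 they were lower than in the other fl/fl libraries by more than the median gene over 6 kb, with log2 differences of -2.0 and -1.92.

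The remaining tri-snRNP genes moved little. Sart1, a protein that helps hold the tri-snRNP together, was at 6738, 6927 and 6929 scaled counts in fl/fl and 8044, 8466 and 8086 in KO, a small difference with tight groups (log2 fold change 0.26; adjusted p = 0.251 in limma). Prpf6, which bridges U5 and U4/U6, was at 6071, 6263 and 6158 against 5578, 5259 and 5572. The KO values were wholly below, but the log2 fold change of -0.17 did not pass the test (adjusted p = 0.432 in limma). Eftud2, the GTPase of U5, was at 16066, 14312 and 11528 against 17146, 16184 and 15093, with overlapping groups, and 26.9% of its exon bases lie under a noncoding gene on the other strand. Ddx23, the helicase that exchanges U1 for U6 at the start of the intron, was the lowest of the 35 at 547, 389 and 568 against 599, 505 and 627, with overlapping groups. Log2 fold changes were 0.19 for Prpf4, -0.11 for Prpf31, both U4/U6 proteins, and 0.021 for Usp39, an inactive relative of ubiquitin proteases (adjusted p = 0.439, 0.665 and 0.940 in limma). Prpf3 and its U4/U6 partners Prpf4 and Prpf31 thus had log2 fold changes of 0.72, 0.19 and -0.11, and the differences between these genes were not tested. Of Prpf31 exon bases, 18.1% are shared with Gm15927 on the other strand.

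Among the further PRP factors 0 of 5 passed the limma test, and Prpf39 and Prpf38b came nearest of all genes outside the 3 called. Prpf39, a protein of the U1 snRNP, was at 4698, 5825 and 4937 scaled counts in fl/fl and 8147, 7440.3 and 7794 in KO. The groups were well apart, with means of 5153 ± 594 and 7794 ± 353 and a log2 fold change of 0.60 (adjusted p = 0.0746 in limma; edgeR 0.0799; DESeq2 7.64e-04). It passed without fl/fl replicate 3 (log2 0.57; adjusted p = 0.0489 in limma). Of its exon bases 5.005% are shared with Fkbp3 on the other strand. Prpf38b, a relative of the B complex protein Prpf38a, was at 5585, 6341 and 4383 against 8504, 8428 and 7774, a log2 fold change of 0.61 (adjusted p = 0.109 in limma; edgeR 0.109; DESeq2 0.00616). Without fl/fl replicate 3 its fold was 0.47 (adjusted p = 0.0514 in limma), and with the length trend removed 0.71 (adjusted p = 0.0415 in limma). Prpf38a itself was at 3444, 3204 and 4373 against 4475, 3504 and 3643, so the groups overlapped and the log2 fold change was 0.081. Prpf18, a factor of the second catalytic step, was at 3257, 3030.00 and 2855 against 2982, 2996 and 2963, with the KO values inside the fl/fl range. Prpf4b, a kinase that phosphorylates tri-snRNP proteins, had a log2 fold change of 0.096 (adjusted p = 0.732 in limma).

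In the PRP19 complex, which stabilises the activated spliceosome, 0 of 4 genes passed the test and the log2 fold changes were small, from -0.071 to 0.17. Prpf19, its ubiquitin ligase, averaged 10568 ± 2035 in fl/fl and 10627 ± 986 in KO (scaled counts, SD over 3 libraries), a log2 fold change of 0.023 (adjusted p = 0.955 in limma). That value was below 0 without fl/fl replicate 3 (-0.15). Plrg1, a core partner, was at 4689, 4734 and 5489 in fl/fl and 5062, 4956 and 4189 in KO, with overlap. Crnkl1, a scaffold protein with repeated helices, was at 3129, 3143 and 3109 against 3410.1, 3492 and 3016, so that the fl/fl libraries were almost alike and lay inside the KO range. Cdc5l, the Myb-related subunit, had KO values wholly above the fl/fl values and a log2 fold change of 0.17 (adjusted p = 0.457 in limma), and 10 annotated genes carry near-identical copies of its transcript.

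Of the 3 remaining helicases 0 passed the limma test, and in each the KO values lay wholly above the fl/fl values, as for 8.30% of all genes. Ddx46, which acts when U2 joins, was at 6907, 6771 and 4957 scaled counts in fl/fl and 9078, 8752 and 8319 in KO, a log2 fold change of 0.50 (adjusted p = 0.157 in limma; DESeq2 0.0303). Dhx15, which takes spent spliceosomes apart, was at 11131, 11276 and 8240.2 against 14491, 14029 and 12203, a log2 fold change of 0.42 (adjusted p = 0.218 in limma). Dhx8, which releases the spliced transcript, was at 3986, 3781 and 2656 against 4458, 4215 and 4475, a log2 fold change of 0.36 (adjusted p = 0.332 in limma). In all of them fl/fl replicate 3 was the lowest library, and without it the folds were 0.35, 0.27 and 0.17 (adjusted p = 0.0660, 0.153 and 0.266 in limma).

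Levels can be compared between genes only per length, for which RPKM (reads per kilobase of gene length, scaled to the size of the library) were computed from the scaled counts and the deposited gene lengths. In fl/fl cells 33 of the 35 genes were above the median level of all genes tested. The median of the 35 was 38.3 RPKM against 10.1 for all genes. For the 83 further spliceosome genes described below it was 41.4 RPKM. Of the 35, U2af1 was highest at 186 ± 22.9 RPKM (SD, n = 3), followed by Sf3a3 at 142 ± 23.6, Sf3b2 at 135 ± 19.8 and Sf3b3 at 128 ± 44.0. Sf3a3, Sf3b2 and Sf3b3 lay within their spread of each other. The deposited length was 974 bases for U2af1 and 1697 for Sf3a3, against 2598 and 2785 exon bases in GENCODE M21. The order of U2af1 and Sf3a3 therefore depends on which length is used. Zrsr2 and Ddx23 were lowest, at 6.85 ± 0.693 and 3.98 ± 0.776 RPKM, and were the pair below the median of all genes. In KO the levels were 225 ± 15.8 RPKM for U2af1, 8.72 ± 0.428 for Zrsr2 and 4.59 ± 0.510 for Ddx23. Zranb2 was at 52.3 ± 1.19 RPKM in fl/fl and 27.7 ± 2.66 in KO, while Smndc1 was at 21.1 ± 1.69 and 39.6 ± 1.87, so the order of these genes was opposite in fl/fl and KO.

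**Figure D4:**
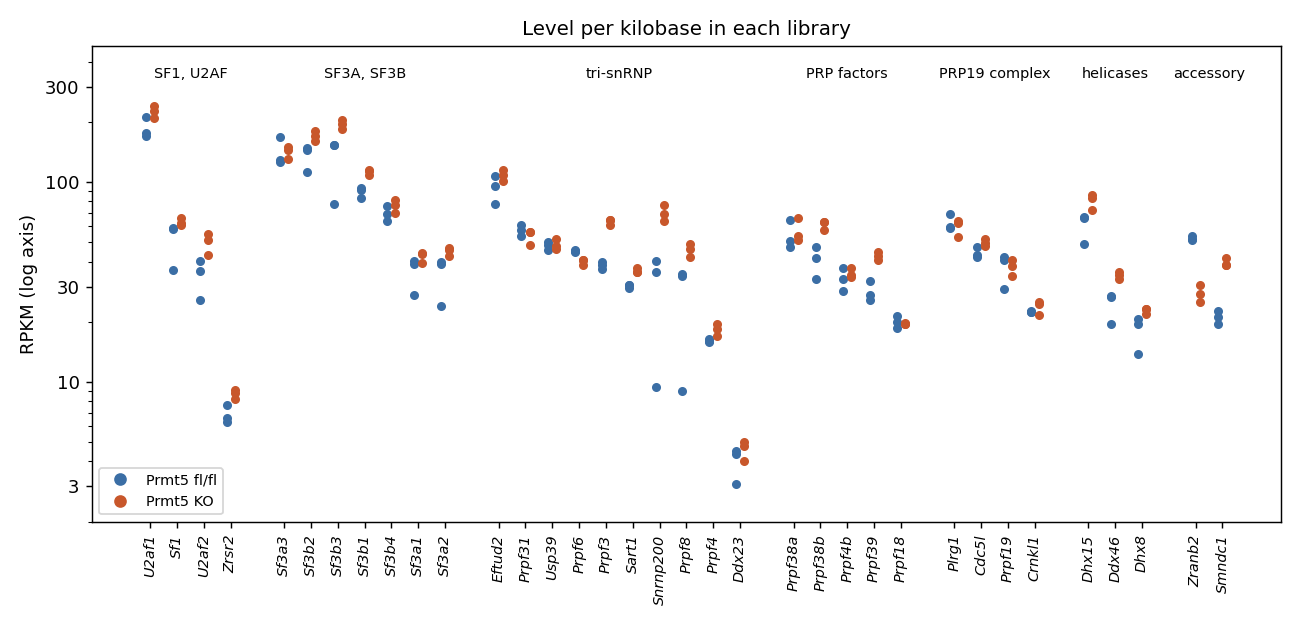
Level per length in RPKM (vertical, log axis) of the 35 genes in each library, Prmt5 fl/fl in blue and KO in orange, grouped by role and ordered by the fl/fl mean. By the deposited gene lengths, U2af1 is highest and Ddx23 lowest in both genotypes. The single low blue points of Snrnp200 and Prpf8 are fl/fl replicate 3.

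The spread between libraries was smaller for these genes than for the table as a whole. The median SD of the log2 values was 0.19 in fl/fl and 0.088 in KO for the 35 genes, against 0.30 and 0.17 for all genes tested. Over fl/fl replicates 1 and 2 alone it was 0.035 for the 35 genes and 0.10 for all genes. The 83 further spliceosome genes had 0.21 in fl/fl, 0.10 in KO and 0.054 over fl/fl replicates 1 and 2. The smaller spread was thus not particular to the 35. Their median level was also above that of all genes (38.3 against 10.1 RPKM in fl/fl), and its part in the spread was not tested. The 35 genes had a median deposited length of 3233 bases, against 2808 for all genes tested.

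A list of 83 further spliceosome genes, without the Sm, LSm, SR and hnRNP protein genes, gave 0 past the limma threshold in either direction. It gave 0 by edgeR and 2 higher by DESeq2, among them Wbp11, against 2.57% of all genes. At an unadjusted p below 0.05, 3 were higher and 2 lower (4.58% and 13.6% of all genes), and the median log2 fold change was 0.020 (0.080 without fl/fl replicate 3). Folds above 0 were found for 49 of the 83, against 44.8% of all genes. KO values lay wholly above fl/fl for 10 and wholly below for 3, against 8.30% and 19.9% of all genes. The 2 lists differ in gene length, with a median of 2208 bases for the 83 genes, and in fl/fl replicate 3 the median log2 difference from the other fl/fl pair was 0.23 for them and -0.14 for the 35. With the length trend removed the medians were 0.15 and 0.29. Both lists were chosen with earlier results of these data known, and the difference between them was not tested. Isy1, a PRP19-related factor, had the smallest p, at a log2 fold change of -0.43 (adjusted p = 0.136 in limma). Snrnp35, of the minor spliceosome, was at -0.54 (adjusted p = 0.188 in limma), and Luc7l3, related to the U1 snRNP, at -0.33 (adjusted p = 0.283 in limma). The values for Wbp11, a splicing factor, and the helicase Ddx41 were 0.31 and 0.27 (adjusted p = 0.203 and 0.260 in limma). Among subgroups, medians ran from -0.12 for 10 minor spliceosome genes to 0.26 for 5 exon junction complex genes. Without fl/fl replicate 3 the medians of these subgroups were 0.040 and 0.31. With the length trend removed they were 0.062 and 0.44, so the sign for the minor spliceosome genes was not stable.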

How the data were processed

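RNA-seq of 6 libraries (3 Prmt5 fl/fl, 3 Prmt5 KO) was analysed. Per the labels' protocols, cDNA was made with the SMART-Seq v4 kit and libraries with Nextera XT, neither of which marks strand. Per the submitters' processing notes, STAR and featureCounts were used on mm10, while versions, annotation and counting options were not stated there. For Prmt5 fl/fl replicate 2 the authors deposited whole read counts. For the other libraries the authors deposited a signal rescaled so that every library sums to the total of that one (44704636). Scaling back gave whole reads for 100% of values in each library (tolerance 1e-06). No column belonged to another sample. Per the file headers, the table also holds gene length.

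Values entered as log2(value + 1) after genes with a mean under 10 were dropped. The moderated test of limma (two-sided, mean-variance trend on, 4 residual degrees of freedom) was fitted to all 14113 genes, with Benjamini-Hochberg adjustment over all of them and a threshold of 0.05. Fold changes on this scale understate changes of low genes. edgeR and DESeq2 were run on the recovered reads (14036 genes) and called 60 and 974 genes. R 4.3.3, limma 3.58.1, edgeR 4.0.16, DESeq2 1.42.0, Python 3.11.15, matplotlib 3.10.9 and BLAST 2.17.0 were used, and the fit was tested on simulated data. Alternatives were the pseudocount, filters, scalings, tests, a replicate block and leaving out each library, with removal of length trends (lowess, span 0.3) chosen after seeing the data. At these totals (37834096 to 44704636 reads) libraries differed by more than counting error (chi-square over its degrees of freedom at least 26.2), so none was a copy. The sources of that spread were not separated.

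The members and lists were chosen with earlier results of these data known. Values in every library are given for genes with an unadjusted limma p below 0.05, genes that any tool called, and the genes with the highest and lowest level per length in each role group. Prpf8 and Prpf6 were added after their values were seen. Of the 83 further genes the 6 with the smallest p were to be named, and 1 of them is not reported here. Coordinates are from GENCODE M21 by symbol (35 of 35 matched), and promoter windows from RefSeq GRCm38.p6. Protein sequences were not used here.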

Additional observations from a re-analysis of the deposited data

How the results depend on the processing

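Over 17 other settings, 1 of them chosen after seeing the data, the median log2 fold change of the 35 genes stayed between 0.21 and 0.37. The count of the 35 past the threshold, 3 in the main analysis, was 0 with limma without the trend, 0 with the replicate block, 8 with DESeq2, 5 with the length trend removed, and 0 to 5 when 1 library was left out, with 5 only without fl/fl replicate 3. For the 83 further genes it was 0, except for 2 with DESeq2 and 3 with the length trend removed, and 0 without each library in turn. Of all genes, 6.94% passed with DESeq2 and 3.33% with the length trend removed. The shares for limma without the trend and without libraries other than fl/fl replicate 3 are not given here. The median of the 83 moved to 0.15 with the length trend removed and was -0.013 to 0.082 without each library in turn. The calls of Prpf3, Smndc1 and Zranb2 held in 10 of 17 settings each, always with the same sign. Libraries of the same replicate number share a title prefix whose meaning the labels do not give, and the deviations of same-number libraries correlated at -0.14, 0.067 and -0.26. With the replicate block (2 residual degrees of freedom) limma called 1 gene in the whole table, and the adjusted p was 0.197 for Prpf3, Smndc1 and Zranb2 and 0.0618 for Prmt5.

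Signs turned only for genes with log2 fold changes within 0.10 of 0, and the cause was not tested. Prpf18 was at 0.057 with median-of-ratios size factors, 0.033 with TMM factors, 0.031 with edgeR, 0.055 with DESeq2, 0.024 with the length trend removed and from -0.076 to 0.019 without 1 library. Plrg1 was at 0.016 with median-of-ratios size factors, 0.016 with DESeq2, 0.13 with the length trend removed and from -0.12 to 0.015 without 1 library. Prpf19 was at -0.0061 with quantile normalization, -0.11 with the length trend removed and from -0.15 to 0.12 without 1 library. With 1 library left out, Sf3a3 ran from -0.067 to 0.14, Usp39 from -0.029 to 0.055, Prpf4b from -0.0026 to 0.19 and Prpf38a from -0.027 to 0.21.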
